A study of Saccharomyces cerevisiae with 12 samples.

Results

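RNA of a budding yeast strain that lacks AFT1 was compared with RNA of its wild-type parent BY4741 after hydroxyurea, gene by gene, on 2 spotted slides. The 2 slides were chosen by their labels, which name the aft1 strain and BY4741, and they make 4 of the 12 columns of the table, since each slide was read in a strong and a weak scan. The other columns hold the strain Y18daft2, labelled as lacking both AFT1 and AFT2, over its own parent CM3260, in hydroxyurea (2 slides) and in rich medium (2 slides). Every culture was taken to an optical density of 0.5 in YPD, a rich medium, and hydroxyurea cultures then had 200 mM of the drug for 2 hours. On 1 aft1 slide the mutant RNA was in channel 1, and on the other it was in channel 2. All 3127 genes that a probe names singly were measured on both. The labels do not say whether the slides came from separate cultures, so a p-value measures the spread between slides, which may be technical. They also do not say how AFT1 was deleted, and no aft1 slide was made in rich medium, so the effect of hydroxyurea itself was not measured in this strain.

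Aft1 is the main activator of the yeast iron regulon. When iron is short it enters the nucleus and switches on genes that take up iron at the cell surface, through ferric reductases, a high-affinity iron permease and siderophore carriers, and genes that move iron between compartments. Aft2 is its paralogue with an overlapping set of targets. Iron serves the cell in heme, in iron-sulfur clusters and in the di-iron centres of enzymes such as the fatty acid desaturase Ole1 and ribonucleotide reductase. Hydroxyurea blocks ribonucleotide reductase and slows DNA replication.

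Values are log2 ratios of aft1 over BY4741, averaged over the 2 scans of a slide and then over the slides, with the base of the deposited logarithm read as 2. They are relative to other genes, because each column was centred and a trend between the channels, common to the slides, was removed. The direction of the ratio was taken as likely from AFT1 itself, as the labels do not state it. In the values as deposited, the median gene of this comparison lay at -0.23, and every shift given here is relative to the median after normalisation, -0.0081. Fewer cells of a kind and less RNA per cell cannot be told apart in such samples. Across the 3127 genes the 2 slides correlated at a Pearson r of 0.38 (Spearman rho 0.28) after the trend was removed. The same slides correlated at 0.17 (rho 0.12) with columns only centred and at 0.19 (rho 0.14) as deposited. The 2 scans of a slide correlated at 0.88 and 0.82. These correlations are across genes, which are not independent replicates.

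In the aft1 strain 3 genes fell and 1 rose past an adjusted p of 0.05 in limma with Benjamini-Hochberg adjustment. The 4 genes were AFT1, the siderophore-iron genes FIT3 and ENB1, and the membrane protein gene IZH4. They were 0.128% of the genes tested, with 0.0959% lower and 0.032% higher. Without adjustment 129 genes (4.13%) had a p under 0.05, 54 lower (1.73%) and 75 higher (2.4%), against 156.35 that a threshold of 5% would pass among as many genes with no difference.

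AFT1 (YGL071W) read -2.44 in the weak scan and -4.17 in the strong scan where aft1 was in channel 1, and -2.47 and -3.09 in the weak and strong scans where it was in channel 2. In each of the 4 scans AFT1 was the lowest of the 3127 named genes, while a spot with no gene name here lay further out in each column as deposited. Its mean was -3.04 ± 0.371 (SD, n = 2 slides; SE of the fit 0.205), that is 8.24-fold lower in aft1 than in BY4741 (limma adjusted p = 0.00078). Its sign set the direction of the table and is no result, while its size is. The strong scans gave the larger ratios for this gene. Whether the spotted probe lies inside the deleted part is not known here.

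The chromosomal neighbours of AFT1 were read next. Of the 5 genes on each side, 8 of 10 were measured, and they lay between -0.33 (MNP1, a mitochondrial ribosomal protein) and 0.13 (DBP3, an RNA helicase of ribosome assembly). None of the 8 passed the threshold. Over whole chromosomes the medians of the 16 lay between -0.07 and 0.01, on 17 to 437 genes each.

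FIT3 (YOR383C) and ENB1 (YOL158C) were the iron uptake genes that fell. FIT3, a cell wall mannoprotein that helps to hold siderophore-bound iron at the surface, read -1.58 and -1.74 (weak and strong scan) with aft1 in channel 1, and -1.77 and -1.82 with aft1 in channel 2. ENB1, the carrier of the siderophore enterobactin, read -1.38 and -1.49, and then -1.23 and -1.35. For both genes the 4 readings lay close together and none came near 0. FIT3 was 3.32-fold lower at -1.73 ± 0.0952 (SD, n = 2 slides; SE 0.209; limma adjusted p = 0.0265). ENB1 was 2.57-fold lower at -1.36 ± 0.104 (SD, n = 2 slides; SE 0.163; limma adjusted p = 0.0265). With 1 or the other aft1 slide left out, AFT1 was the 1 gene past the threshold, and limma adjusted p lay between 0.119 and 0.507 for FIT3, ENB1 and IZH4. With all 12 columns and the slide as a random block ENB1 kept its call (limma adjusted p = 0.0355) while AFT1 (0.145), FIT3 (0.214) and IZH4 (0.145) lost theirs, and from strong scans alone all 4 did (0.0680 for AFT1 and 0.210 for the others).

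IZH4 (YOL101C) was the gene that rose. It encodes a membrane protein of a family tied to zinc and sterol metabolism. Its readings were 1.18 and 1.60 (weak and strong scan) with aft1 in channel 1, and 1.10 and 1.30 with aft1 in channel 2, all more than 2-fold up. The mean was 1.29 ± 0.134 (SD, n = 2 slides; SE 0.163), or 2.45-fold higher in aft1 (limma adjusted p = 0.0270). In the values as deposited it kept its sign at 1.08, and the adjusted p was 0.551.

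At least a 2-fold difference on both slides was seen for 7 genes, of which 4 were lower (0.128%) and 3 higher (0.0959%). The lower ones were AFT1, FIT3, ENB1 and YMR315W, and the higher ones were IZH4, PHO89 and OLE1. YMR315W, an NADPH-linked oxidoreductase gene, read -1.19 and -1.31 on the slides, with little spread between them. Its SE was 0.431 because its values spread widely between the slides of the other comparisons that the fit shares, and its adjusted p was 0.999. PHO89 (YBR296C), the sodium-coupled phosphate carrier of the plasma membrane, read 0.92 and 1.74 with aft1 in channel 1, and 1.24 and 1.03 with aft1 in channel 2. It stood 2.35-fold higher at 1.23 ± 0.139 (SD, n = 2 slides; SE 0.175) and missed the threshold narrowly (limma adjusted p = 0.0517). OLE1, the fatty acid desaturase, read 1.04 and 1.03, and 1.14 in the weak scan of the other slide, whose strong scan held an exact 0 and was left out. It was 2.13-fold higher at 1.09 ± 0.0776 (SD, n = 2 slides; SE 0.164; limma adjusted p = 0.0681).

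**Figure D1:**
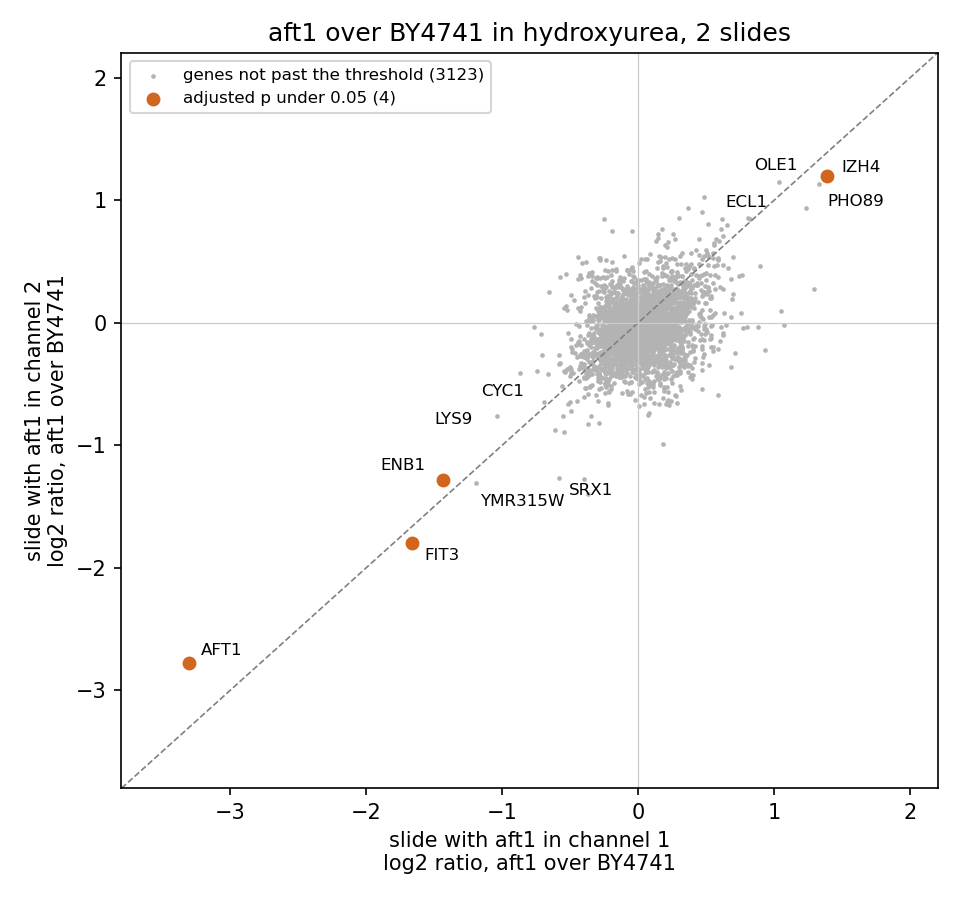
Log2 ratio of aft1 over BY4741 for 3127 genes on the slide with aft1 in channel 1 (x axis) and in channel 2 (y axis); orange points passed an adjusted p of 0.05, and the dashed line marks equal values. AFT1, FIT3 and ENB1 lie far down the line, IZH4, PHO89 and OLE1 up it, and most genes sit within the central cloud.

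The genes that held the largest shift on both slides were listed by the smaller of their slide values, among 1404 genes with the same sign in all 4 scans. Only the 3008 genes measured in all 4 scans could enter, so OLE1, with 1 scan missing, was left out despite its size. On the high side, after IZH4 and PHO89, came ECL1, a small factor linked to lifespan, at 0.82 with aft1 in channel 1 and 0.84 with aft1 in channel 2. The uncharacterised gene YOR296W read 0.81 and 0.85. The others were RKM5, a methyltransferase for a ribosomal protein, at 0.73, the ammonium permease gene MEP1 at 0.69, the alcohol acetyltransferase gene ATF2 at 0.67, NAR1 of cytosolic iron-sulfur cluster assembly at 0.63 and the mitochondrial J-protein gene MDJ2 at 0.63. The translation factor gene HCR1 stood at 0.61, YNR014W at 0.60 and TDA4 at 0.56. None of the 11 genes, PHO89 included and IZH4 aside, passed the threshold, and their limma adjusted p lay between 0.0517 and 0.881.

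On the low side, after AFT1, FIT3, ENB1 and YMR315W, LYS9 of lysine synthesis read -1.04 with aft1 in channel 1 and -0.76 with aft1 in channel 2. SRX1, the sulfiredoxin that repairs oxidised peroxiredoxins, read -0.59 and -1.27. OPY1 averaged -0.74, CCP1, the mitochondrial cytochrome c peroxidase, -0.72 and CYC1, the main cytochrome c, -0.67. FSH1, a putative serine hydrolase, stood at -0.66, the polyamine transporter gene TPO4 at -0.59 and the mitochondrial citrate carrier gene CTP1 at -0.54. None of these 9 genes, YMR315W included, passed, and their limma adjusted p lay between 0.578 and 0.999.

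**Figure D2:**
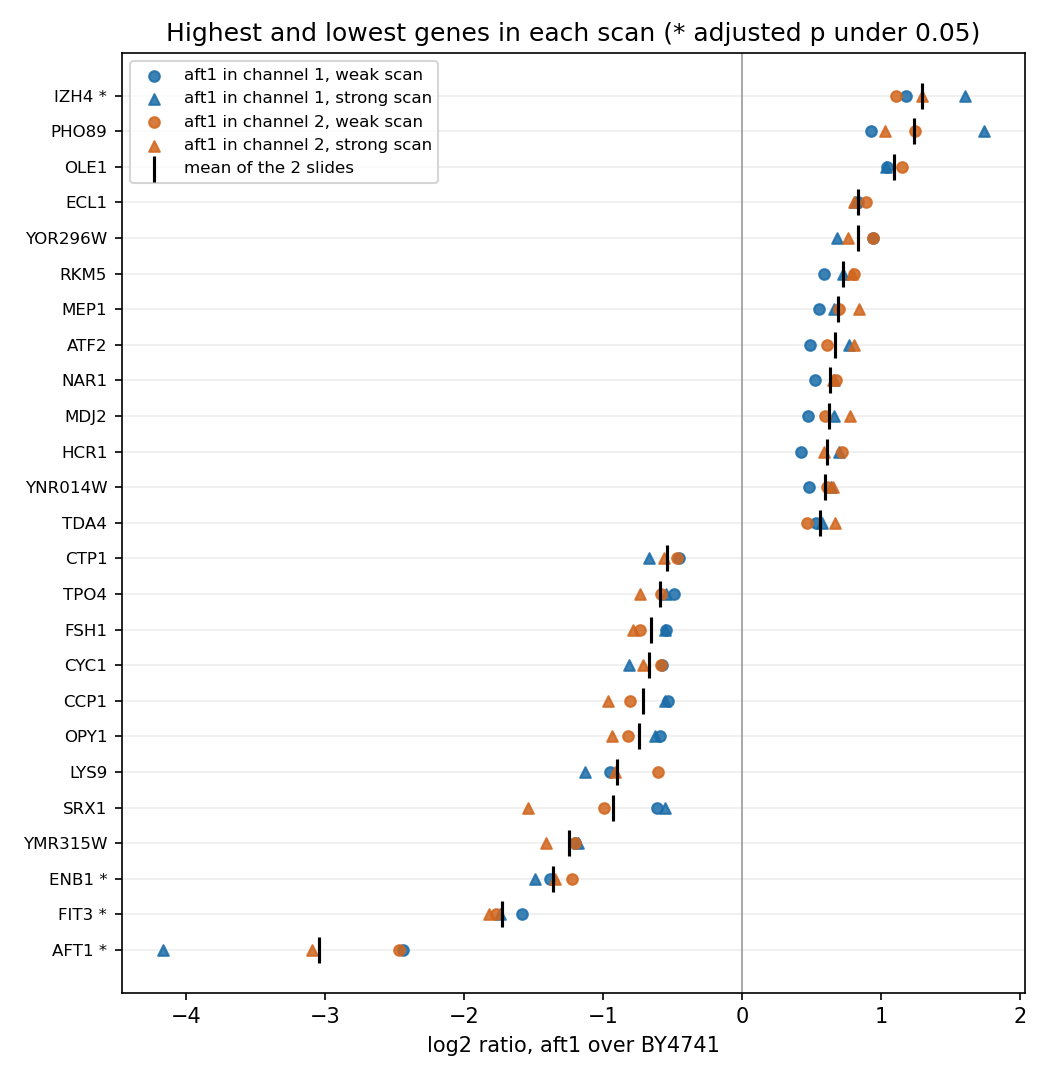
Log2 ratio of aft1 over BY4741 (x axis) in each scan of each slide for the 12 highest and 12 lowest genes and OLE1 (rows), with a black tick at the mean of the slides; stars mark an adjusted p under 0.05. The 12 highest and 12 lowest genes were chosen to have every reading on 1 side of 0, and the strong scans of AFT1 lie below its weak scans.

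Members of the pathways below were taken from fixed lists, and each list is described by its counts and its median. For comparison, 30.9% of all genes were below 0 on both slides and 27.1% were above 0 on both. The iron uptake list at the cell surface had 9 of 18 genes measured. FTR1 and FET3, the permease and oxidase pair, were not analysed here. Apart from FIT3 and ENB1, its members lay between -0.28 and 0.26. The copper chaperone gene ATX1, which supplies the iron oxidase with its copper, read -0.25 with aft1 in channel 1 and -0.31 with aft1 in channel 2. Among the ferric reductase genes none passed. FRE6, a vacuolar one, averaged -0.19 and FRE2 -0.09, while FRE5 stood at 0.07, FRE3 at 0.13 and FRE4 at 0.26. FIT2, a mannoprotein of the same family as FIT3, read -0.28 on the slide with aft1 in channel 1 and 0.37 on the other. In all, 3 of the 9 genes were below 0 on both slides and 2 above, and the median was -0.09.

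Iron handling inside the cell had 15 of 21 genes measured, and AFT1 itself was the member past the threshold. CCC1, which carries iron into the vacuole for storage, read -0.50 with aft1 in channel 1 and -0.64 with aft1 in channel 2. SMF3, a vacuolar exporter of iron, stood at 0.89 and 0.47, and FTH1, part of the vacuolar iron permease, at 0.17 and 0.76. FRA1, a part of the complex that passes iron status to Aft1, averaged 0.45 and the mitochondrial iron carrier gene MRS3 0.31. AFT2, which is intact in this strain, read 0.54 and 0.20, with a mean of 0.37 ± 0.239 (SD, n = 2 slides; SE 0.178). None of these 6 genes passed (limma adjusted p of 0.881 for CCC1 and 0.999 for the others). The list had 5 members above 0 on both slides and 2 below, and a median of 0.14.

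Genes of iron-sulfur cluster assembly, which builds clusters in mitochondria and passes them to the cytosol, were spread about 0, with a median of 0.03 over 12 of 24 genes measured. NAR1 read 0.59 and 0.66 on the slides with aft1 in channel 1 and channel 2, and ISU2, a scaffold on which clusters form, read 0.63 and 0.47. At the low end were MGE1, a cochaperone, at -0.34 and ISA1 at -0.29. Of the 12 measured enzymes that carry iron-sulfur clusters, 9 were below 0 on both slides and 1 above, with a median of -0.24, and none passed the threshold. GLT1, glutamate synthase, was lowest at -0.54, followed by APD1 at -0.45, RIP1, the Rieske protein of the respiratory chain, at -0.45 and SDH2, the cluster subunit of succinate dehydrogenase, at -0.44. NTG2, a DNA repair glycosylase, was the member above 0, at 0.22.

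**Figure D3:**
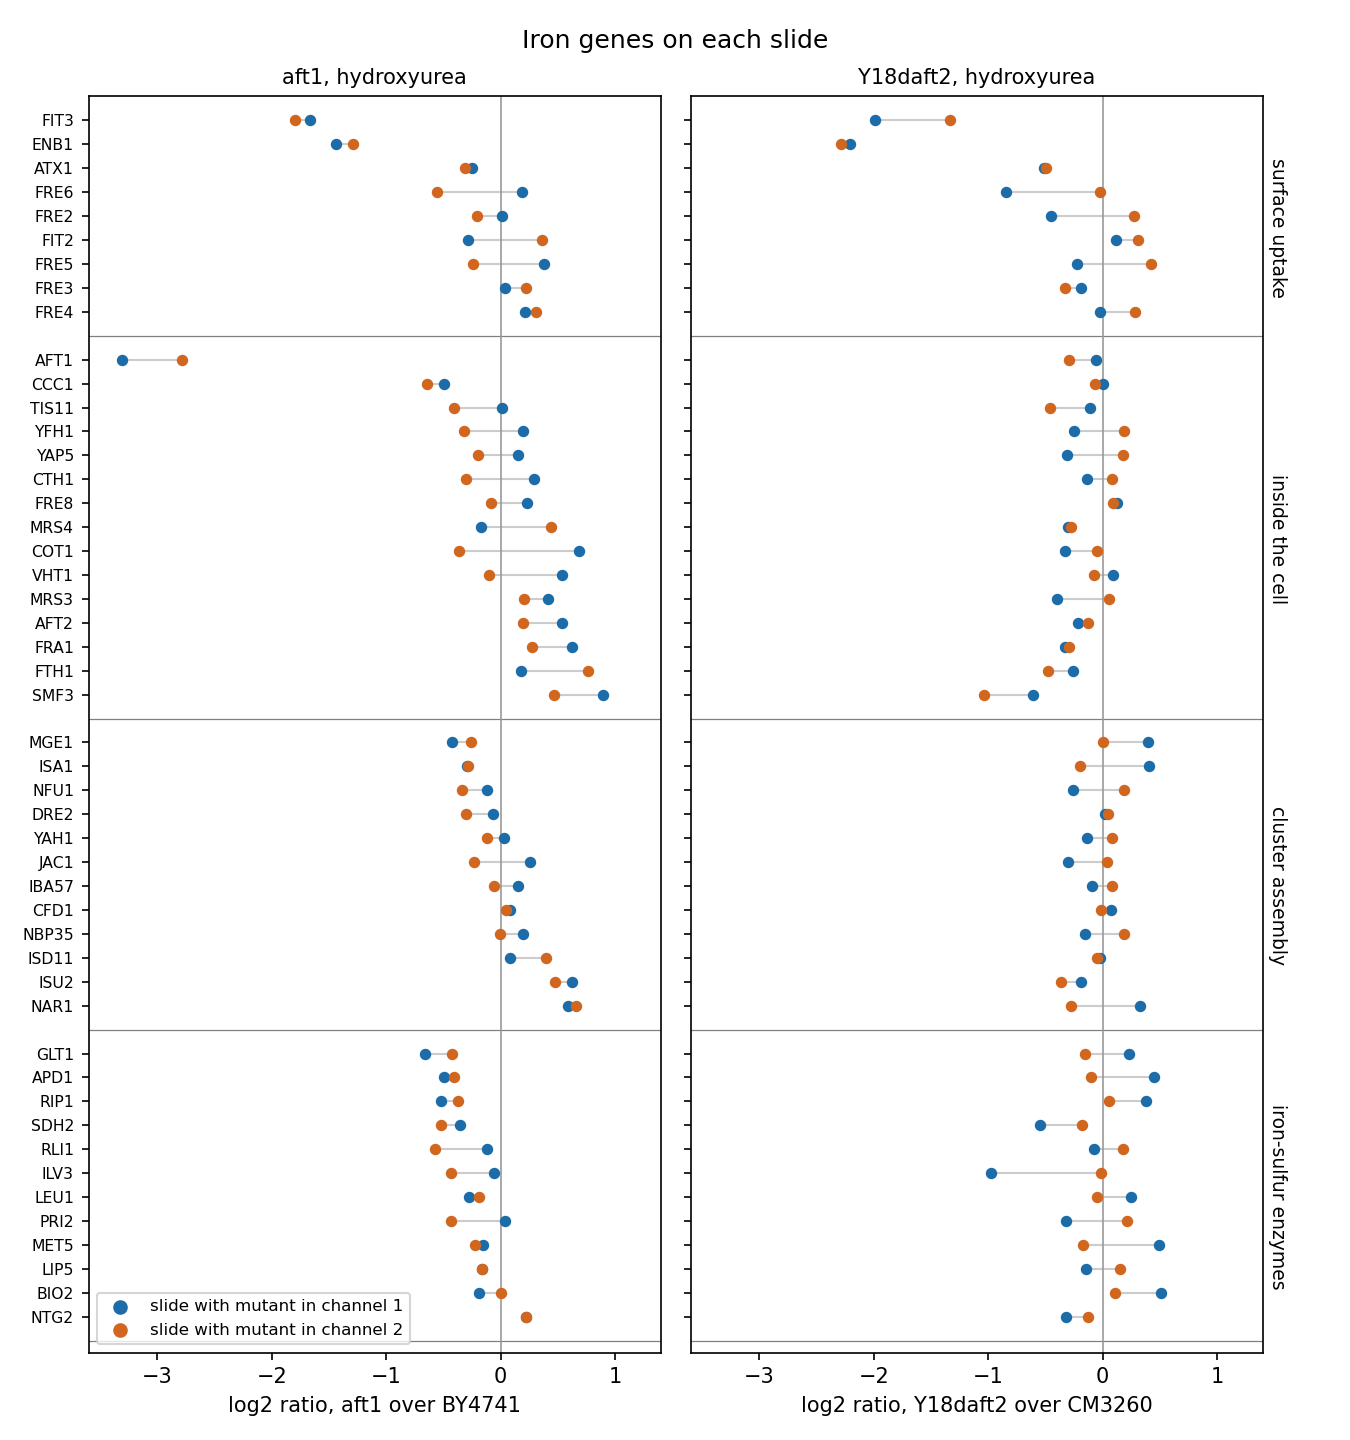
Log2 ratio of mutant over parent (x axes) on each slide for genes of iron uptake, iron handling, iron-sulfur cluster assembly and iron-sulfur enzymes (rows), in aft1 over BY4741 (left) and Y18daft2 over CM3260 (right), both in hydroxyurea. FIT3 and ENB1 are low in both panels, AFT1 is low at left, and SMF3 and FTH1 lie above 0 at left and below 0 at right.

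The respiratory chain and ATP synthase list had the lowest median of the 35 lists, at -0.26. Of 32 genes measured, 26 were below 0 on both slides and 1 above, and 7 had an unadjusted p under 0.05, all lower (1.73% of all genes did). None passed after adjustment. CYC1 read -0.70 with aft1 in channel 1 and -0.65 with aft1 in channel 2, and COX9, a subunit of cytochrome c oxidase, -0.75 and -0.40. At the other end were the NADH dehydrogenase genes NDE1 at 0.12 and NDE2 at 0.08. The slide medians of the list were -0.20 with aft1 in channel 1 and -0.35 with aft1 in channel 2. The members share mitochondria as their place and are often regulated together, so they are not independent counts. Genes of heme synthesis and its regulators had a median of -0.06 over 10 genes, from COX10, which works in making heme A, at -0.27 and HEM4 at -0.15 to HEM13 at 0.11 and HAP2, a subunit of the heme activator complex, at 0.20.

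Of 13 measured genes of the citrate and glyoxylate cycles, 6 were above 0 on both slides and 1 below, with a median of 0.12. CIT2, the peroxisomal citrate synthase that responds to mitochondrial signals, read 0.58 and 0.52 on the slides with aft1 in channel 1 and channel 2, and IDH2, a subunit of isocitrate dehydrogenase, 0.52 and 0.54. MDH3 and MDH1, the peroxisomal and mitochondrial malate dehydrogenases, were lowest at -0.22 and -0.10. None passed the threshold.

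In ergosterol synthesis, whose later steps use heme and di-iron enzymes, 12 of 13 measured genes were above 0 on both slides and none below, with a median of 0.24. ERG3, the sterol desaturase, read 0.47 with aft1 in channel 1 and 0.90 with aft1 in channel 2, and ERG25, the methyl sterol oxidase, read 0.37 and 0.94. The lowest were ERG1 at 0.03 and ERG20 at 0.08. None of the 13 passed. The list median was -0.05 in the values as deposited, where all genes centred on -0.23. In the list of fatty acids and membrane sensing IZH4 rose, OLE1 stood close behind it, and 7 of 14 genes were below 0 on both slides against 6 above, with a median of -0.03. The carboxylase gene ACC1 stood at 0.56, the synthase gene FAS1 at 0.48 and the elongase gene ELO1 at -0.10, and none of them passed. IZH3, of the same family as IZH4, read 0.35 and 0.30. SCS7, which hydroxylates sphingolipid fatty acids with a di-iron centre, was lowest at -0.35, and the phospholipid methyltransferase gene OPI3 read -0.21.

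Since IZH4 is also a target of the zinc activator Zap1, and PHO89 belongs to the phosphate regulon and to the genes that calcineurin switches on, those lists were read in turn. In zinc homeostasis, with 14 genes measured, IZH4 was the member past the threshold. Next came ADH4 and ZRT1, the high-affinity zinc carrier gene, at 0.35 and 0.34. ZRT3, ZRT2 and ZRC1 averaged 0.04, 0.0002 and -0.06, and ZAP1 itself 0.01. DPP1 was lowest at -0.31. The list median was 0.07. In the phosphate regulon, with 12 genes measured, PHO89 stood alone, as the next was the acid phosphatase gene PHO3 at 0.14. PHO5, the acid phosphatase that phosphate starvation induces, read 0.10, PHO81, the inhibitor of the phosphate cyclin kinase, -0.23, and PHO2, a transcription factor of the pathway, -0.29. In the calcineurin and alkaline pH list, the glucan synthase gene GSC2 came next to PHO89 at 0.41, and the lowest were NRG1 at -0.15 and VCX1 at -0.13. The medians of the last 2 lists were -0.02 and 0.06.

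Copper homeostasis had a median of -0.14 over 8 genes, with ATX1 and COX17, which carries copper to cytochrome oxidase, lowest at -0.28 and -0.20, and CUP2 and SCO1 highest at 0.25 and 0.21. Peroxide and superoxide defence had 13 of 22 genes below 0 on both slides and 3 above, with a median of -0.22. The slides differed in size here, at medians of -0.13 with aft1 in channel 1 and -0.30 with aft1 in channel 2. SRX1 was lowest at -0.93 ± 0.484 (SD, n = 2 slides). GPX2, a glutathione peroxidase, followed at -0.88 ± 0.727 (SD, n = 2 slides), with -0.37 and -1.40 on the slides. DOT5 and GSH1 were highest at 0.16 and 0.15. None of the 22 passed.

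Ribonucleotide reductase, the target of hydroxyurea, and its checkpoint had 8 genes measured, in strains that had both received the drug. The small subunit genes of ribonucleotide reductase RNR2 and RNR4, which hold or support the di-iron centre, averaged 0.22 and 0.26, and WTM1, an anchor of the small subunit in the nucleus, 0.19. RNR2 and RNR4 were read from weak scans alone, as their strong scans held exact zeros. DUN1, the checkpoint kinase that raises reductase activity, read -0.13 and -0.17 on the slides. RAD53 read 0.36 with aft1 in channel 1 and -0.26 with aft1 in channel 2, and MEC1 averaged -0.05, CSM3 -0.12 and TOF1 0.09. The median was 0.07. DNA damage and repair genes had the same median, with DDI1 highest at 0.39, RAD54 at 0.14, and POL30 and REV3 lowest at -0.16 and -0.12. Among cell cycle and histone genes (median -0.04 over 18), EGT2, a gene of daughter cell separation, was lowest at -0.64 and the histone gene HTA2 read -0.42, while CLB3 and CLN1 were highest at 0.15 and 0.12. None of the genes in these 3 lists passed the threshold.

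In glycolysis and fermentation 13 of 17 genes were above 0 on both slides and none below, with a median of 0.20, and the range was narrow, from ENO1 at 0.04 and ADH5 at 0.05 to HXK2 at 0.39 and PYK2 at 0.42. With columns only centred the median of this list was 0.07. ENO1, TDH1, TDH2, TDH3, TPI1, CDC19, ADH1 and PDC5 were read from weak scans alone, as both strong scans held exact zeros. With aft1 in channel 2 the weak scan read these genes from -0.43 (TDH2) to -0.06 (CDC19) as deposited. After centring and removal of the trend all of them but TDH1 and TDH2 stood above 0 on that slide. HXK2 lacked the strong scan with aft1 in channel 1, and read 0.25 (weak) and 0.78 (strong) with aft1 in channel 2. Sugar transport and repression had 8 of 20 above on both slides and none below, with a median of 0.18. GAL10 read 1.05 with aft1 in channel 1 and 0.10 with aft1 in channel 2, and GAL1 0.31 and 0.55, while STD1 and GAL7 were lowest at -0.07 and -0.03. In the general stress response 8 of 13 genes were above 0 on both slides and 1 below (median 0.18), with the small heat shock protein gene HSP26 at 0.56 and the aldehyde dehydrogenase gene ALD4 at 0.45 at the top, and HSP12 at -0.36 and SOL4 at -0.01 at the bottom. Cytosolic and other chaperones had a median of 0.06, from KAR2 at -0.24 and HSP10 at -0.18 to HSP82 at 0.37 and SSA2 at 0.39. Not one gene of these 4 lists passed.

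**Figure D4:**
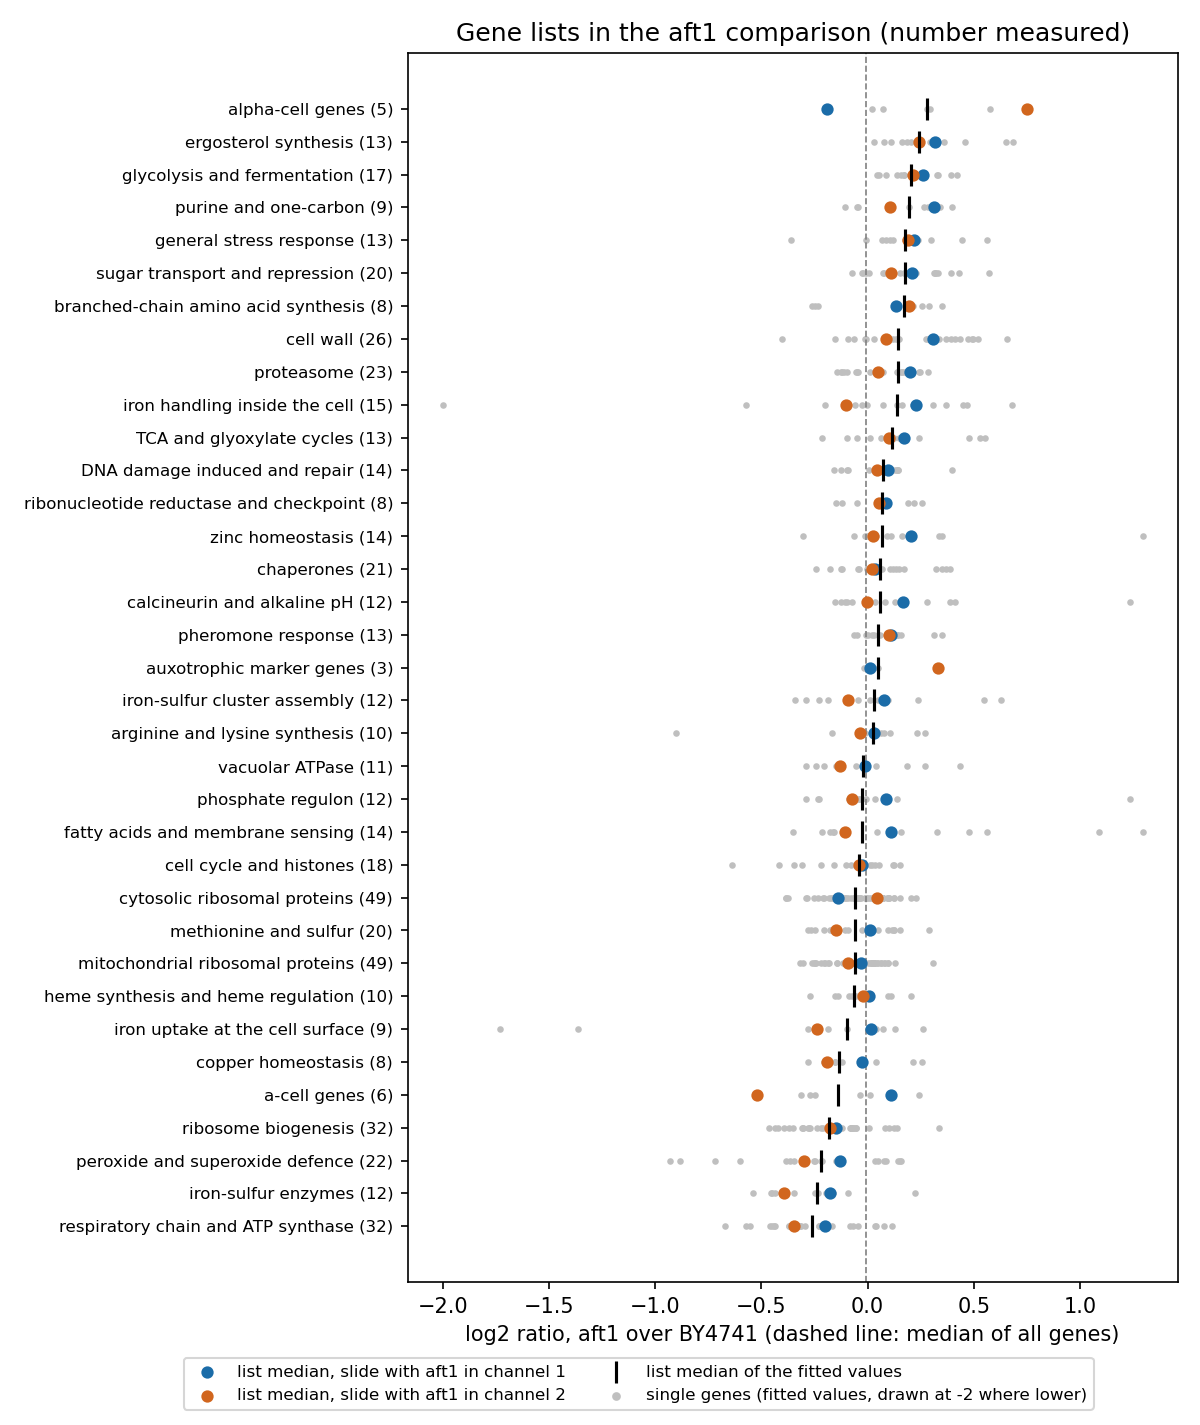
Gene lists (rows, with the number of genes measured) by log2 ratio of aft1 over BY4741 (x axis); grey points are genes, blue and orange points the list medians on the slides with aft1 in channel 1 and channel 2, and black ticks the median of the fitted values. Respiratory and iron-sulfur enzymes lie left of the median of all genes, sterols and glycolysis right of it, and the slides part widely for a-cell and alpha-cell genes.

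The cell wall list had 15 of 26 genes above 0 on both slides and 2 below, and 7 had an unadjusted p under 0.05, all higher (2.4% of all genes did), with none past the adjusted threshold. TIR2, a mannoprotein made in cold and low oxygen, read 0.51 with aft1 in channel 1 and 0.81 with aft1 in channel 2. SED1, a structural wall protein, averaged 0.52 from the weak scans alone, as both strong scans held exact zeros. SPI1 and GAS3 were lowest at -0.40 and -0.15. The list median was 0.14, with 0.31 on the slide with aft1 in channel 1 and 0.08 on the other.

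Ribosome biogenesis had 24 of 32 genes below 0 on both slides and 3 above, with a median of -0.18, from EBP2 at -0.46 and NOP14 at -0.44, which process ribosomal RNA, to NIP7 at 0.14 and RRN3, an initiation factor of RNA polymerase I, at 0.33. Genes of the cytosolic ribosome had 18 of 49 below 0 on both slides, 6 above and a median of -0.06, from RPS25B and RPL28 at -0.38 to RPP1A at 0.20 and RPS9B at 0.23. The mitochondrial ribosome list had 19 of 49 below, 7 above and the same median. It ran from MRPL40 at -0.32 and MRPL24 at -0.30 to RSM7 at 0.13 and MRP8 at 0.31. Its members were taken by gene symbol alone, so MRP8 need not be a ribosomal protein. Many cytosolic ribosomal protein genes have a near-identical copy, so their spots cannot be told apart with certainty. The proteasome list had 13 of 23 genes above and 5 below (median 0.14), from PUP2 and RPN11 at -0.14 and -0.12 to UFD1 at 0.25 and RPT1 at 0.28. The vacuolar ATPase stood at a median of -0.02, from VMA21 at -0.29 and VMA22 at -0.24 to VMA2 at 0.27 and VMA1 at 0.44. VMA1 lacked the strong scan with aft1 in channel 1, and read 0.40 (weak) and 0.92 (strong) with aft1 in channel 2. None of these genes passed the threshold.

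Amino acid and purine genes held few large values other than LYS9. In arginine and lysine synthesis the median was 0.03, LYS9 at -0.90 stood apart from ARG4 at -0.17, and ARG1 and CPA1 were highest at 0.27 and 0.23. Branched-chain synthesis had a median of 0.17, in which the iron-sulfur enzymes ILV3 and LEU1 and the carrier OAC1 were below 0 (-0.25, -0.23 and -0.26) and BAT1 and BAT2 highest at 0.35 and 0.29. Purine and one-carbon genes had a median of 0.19, from GCV1 at -0.11 and MTD1 at -0.05 to ADE2 at 0.34 and ADE3 at 0.40. Methionine and sulfur genes had a median of -0.06, with MET14 and HOM6 lowest at -0.28 and -0.27 and HOM2 and GSH1 highest at 0.29 and 0.15. None of these genes passed.

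The lists called a-cell and alpha-cell genes, not all of whose members mark a mating type, had medians of opposite sign on the 2 slides. BY4741 is a strain of mating type a. The 6 a-cell genes measured had a median of 0.11 on the slide with aft1 in channel 1 and -0.52 on the slide with aft1 in channel 2. The 5 alpha-cell genes had medians of -0.19 and 0.75 on the same slides. STE6, the exporter of a-factor, read 0.12 and -0.66, and MFA2, a gene of a-factor itself, 0.04 and -0.66. STE3, the receptor for a-factor, read -0.25 and 0.84, and SAG1, the alpha-agglutinin, 0.30 and 0.85. Of the other alpha-cell genes, MF(ALPHA)2 read -0.19 and 0.75 and AFB1 -0.19 and 0.34, while MF(ALPHA)1, the main gene of alpha-factor, ran the other way at 0.10 and -0.06. No gene of these lists passed, and 1 of each (AGA1 and SAG1) had the same sign on both slides above 0. The pheromone response list had medians of 0.11 and 0.10 on the slides, from PRM8 at -0.07 and PRM3 at -0.05 to PRM1 at 0.31 and PRM5 at 0.35. MET17, which BY4741 lacks by its construction, also parted, with -0.44 and 0.53, while ADE2 and LYS2 of the auxotrophic marker list averaged 0.34 and -0.02. The Y18daft2 slides in hydroxyurea parted on such genes too. With Y18daft2 in channel 1 and channel 2, STE3 read 0.30 and -0.58, SAG1 0.21 and -0.87 and MF(ALPHA)2 0.19 and -0.96. AFB1 read 0.22 and -0.33 there, MET17 0.25 and -0.81, and MF(ALPHA)1 ran the other way at -0.22 and 0.02. The mating type of the aft1 strain is not given in the labels, and its part in the other results was not tested. FIT3, ENB1, IZH4, PHO89 and OLE1 had the same sign on both aft1 slides. They were singled out above by a shift on both, so that sign was fixed in advance.

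The same treatment had been given to Y18daft2 and CM3260, so the aft1 effect was set against theirs in the fit over all slides. By their labels these strains differ from the aft1 pair in background as well as in AFT2. AFT1 was the gene whose effect differed past the threshold (0.032% of 3127), at -3.04 in aft1 over BY4741 and -0.17 in Y18daft2 over CM3260, a difference of -2.87 (SE 0.290; limma adjusted p = 0.0199). AFT2 read -0.22 and -0.13 on the slides with Y18daft2 in channel 1 and channel 2, with a mean of -0.17 in hydroxyurea and -0.08 in rich medium. Neither gene was thus low at its probe in the strain labelled as lacking both. Where the probes lie relative to the deletions is unknown. Without adjustment 73 genes (2.33%) had a p under 0.05 for the difference. Without 1 or the other Y18daft2 slide in hydroxyurea no gene passed, and the adjusted p of AFT1 was 0.712 without the slide with Y18daft2 in channel 1 and 0.444 without the other.

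FIT3 and ENB1, the iron uptake genes that fell in aft1, were also past the threshold in Y18daft2 in hydroxyurea. FIT3 stood at -1.73 in aft1 over BY4741 and -1.66 in Y18daft2 over CM3260 (limma adjusted p = 0.0359 in the second), a difference of -0.07 (SE 0.296). ENB1 stood at -1.36 and -2.24 (limma adjusted p = 0.00142 in the second), a difference of 0.88 (SE 0.230; limma adjusted p of the difference 0.999). OLE1 averaged 1.09 and 0.96, without passing in either comparison, and LYS9 -0.90 and -0.70. IZH4 was called in aft1, at 1.29, and stood at 0.38 in Y18daft2, but the difference of 0.92 (SE 0.230) did not pass. PHO89 read 1.23 in aft1 and 0.01 in Y18daft2, with a difference of 1.23 (SE 0.247; limma adjusted p = 0.741). A p that misses the threshold does not show that the effects were alike. In rich medium, without the drug, Y18daft2 over CM3260 read -2.56 for FIT3 and -1.13 for ENB1.

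Some genes lay on opposite sides of 0 in the 2 pairs of strains in hydroxyurea without passing the test of the difference. SMF3 stood at 0.68 in aft1 over BY4741 and -0.82 in Y18daft2 over CM3260, FTH1 at 0.47 and -0.37, CYC1 at -0.67 and 0.50, and CIT2 at 0.55 and -0.45. AHA1, a cochaperone of Hsp90, was named after its values were seen because it came closest after AFT1, at 0.12 and -1.47, with a difference of 1.59 (SE 0.225; limma adjusted p = 0.128). The respiratory chain list had a median of -0.26 in aft1 and 0.13 in Y18daft2, ergosterol synthesis 0.24 and 0.07, and the fatty acid list -0.03 and 0.28. In rich medium Y18daft2 over CM3260 read -0.63 for CYC1 and 1.08 for CIT2, on the same side of 0 as aft1. There SMF3 read -0.37 and FTH1 -0.29. Respiratory chain members in rich medium ran from -0.78 (SDH3) to 0.11 (ATP5), most of them below 0. After the trend was removed the 2 slides of Y18daft2 in hydroxyurea correlated below 0 across genes (Pearson r = -0.27, against 0.38 for the aft1 slides), and its means average slides that read many genes in opposite ways.

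**Figure D5:**
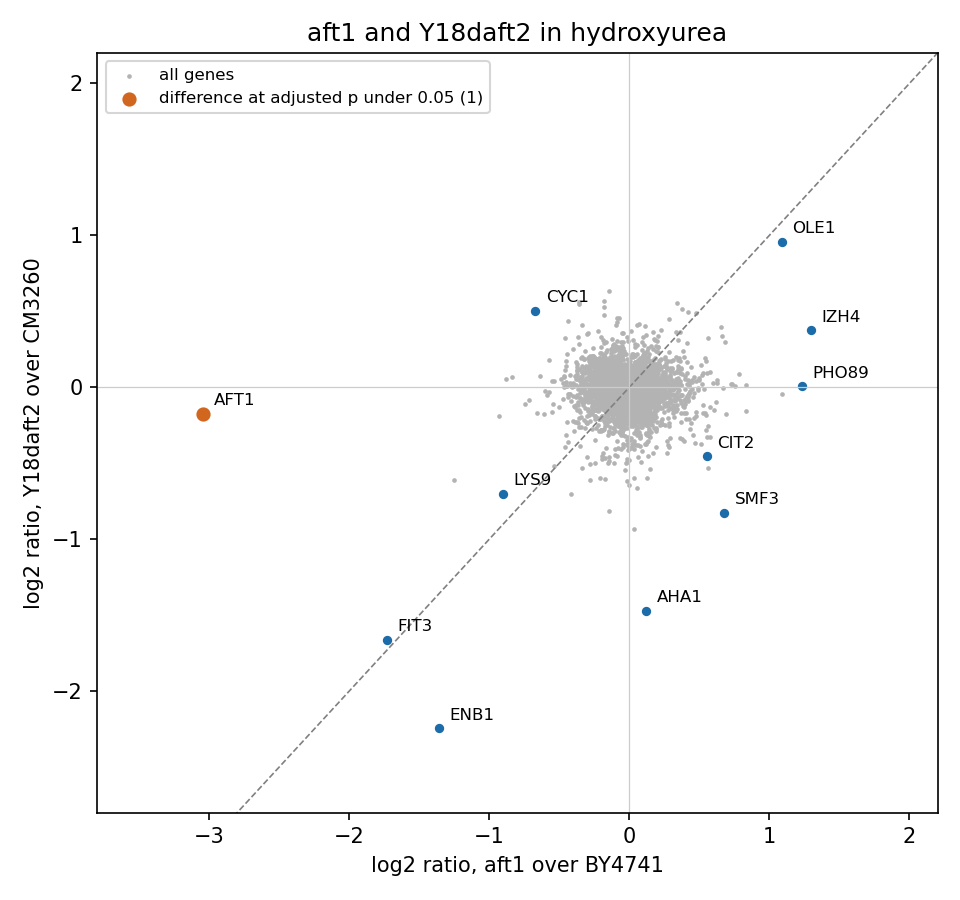
Log2 ratio of aft1 over BY4741 (x axis) and of Y18daft2 over CM3260 (y axis), both in hydroxyurea, for 3127 genes; blue points are named genes, the orange point passed an adjusted p of 0.05 for the difference, and the dashed line marks equal effects. FIT3, OLE1 and LYS9 lie near the line, AFT1 far left of it, and AHA1, SMF3 and CYC1 away from it.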

How the data were processed

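The deposited table has 12 columns of log ratios between channels, over 6912 spots, taken to be log2. How the authors made these log2 values (scanning, background, filters, normalisation), the dyes, the log base and the direction are not given in the sources used here. Spot intensities were not used, so signal over background is unknown, and the number of slides limits the precision. The column medians of the aft1 slides, as deposited, were -0.04 (weak) and -0.12 (strong) with aft1 in channel 1, and -0.13 and 0.85 with aft1 in channel 2. Of the probes, 3344 had 1 gene symbol, 387 several and 3181 no entry in the platform annotation. Symbols were updated by gene ID to RefSeq's (3343 matched).

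Exact zeros of strong scans (278 and 99 on the aft1 slides) were set missing, and columns were median-centred. Loess (span 0.3) against the mean channel value of the 4 slides of the other comparisons then removed a channel trend. Scans were averaged, turned to mutant over parent, and probes of a gene averaged. limma 3.58.1 (R 4.3.3) was fitted over 6 slides, with 1 coefficient for each of 3 comparisons and 1 for the channel, which left 2 residual degrees of freedom, and p-values were adjusted by Benjamini-Hochberg over 3127 genes. The fit was also run on slides simulated from its own channel coefficients and spreads, with independent errors. Such a run cannot show how far the calls on the real slides hold.

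The members and gene lists were chosen with earlier results of these data known. The trend axis and smoother were settled after counts of calls had been seen under several of them. An axis from all 6 slides had been tried first and was dropped because it holds the slide being corrected. Genes were named by rule: those called, the 12 highest and 12 lowest by the smaller slide value among genes measured with the same sign in all 4 scans, and, within lists, the members at both ends and the iron, zinc, phosphate, fatty acid and reductase genes. Alternatives were the deposited, centred and block-centred values, scans taken singly, zeros kept, other axes and spans, other fits, columns taken as already turned, and leaving out each slide. Gene positions served to order the neighbours of AFT1 and to group genes by chromosome, and sequences were not used here.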

Additional observations from a re-analysis of the deposited data

Results flagged for a closer look

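AFT1 is given for a closer look because its effect differed between the 2 pairs of strains in hydroxyurea by a test of the difference itself. The log2 ratio was -3.04 in aft1 over BY4741 and -0.17 in Y18daft2 over CM3260, a difference of -2.87 (SE 0.290; limma adjusted p = 0.0199). On the single slides it read -3.31 and -2.78 in aft1, and -0.06 and -0.29 in Y18daft2. The label of Y18daft2 names AFT1 as deleted too, and whether the probe lies inside the deleted part of either strain is not known here.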

How the results depend on the processing

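With 2 slides a comparison, the calls depend on the settings. The count of genes changed in aft1 over BY4741 (4) was 0 from strong scans alone, where 75 had an unadjusted p under 0.05 in limma, 8 from weak scans, 64 from the aft1 slides alone with no channel coefficient, and 0 with columns taken as already turned (126 unadjusted). It was 40 with the trend axis from all 6 slides and 7 with that from the 5 other slides, both chosen after seeing the data. It lay between 1 and 15 without each slide in turn. The 15 came without either slide in rich medium, and the 1, AFT1, without either aft1 slide. The count differing from Y18daft2 (1) was 0 from strong scans (48 unadjusted), 3 from weak scans, 0 with all 12 columns and the slide as a random block (185 unadjusted), 2 without the channel coefficient, 0 with columns taken as already turned (304 unadjusted), 11 and 5 with those axes, and between 0 and 5 without each slide in turn. The other settings gave 3 to 6 and 1. With the slide as a random block, 3 genes were called, of which ENB1 was 1 of the 4, and AFT1, FIT3 and IZH4 lost the call. IZH4 missed the threshold with a lowess smoother, chosen after seeing the data (adjusted p = 0.0560), and PHO89 passed it with columns only centred (adjusted p = 0.0421). Columns taken as already turned reversed FIT3 to 0.067, ECL1 to -0.010, YOR296W to -0.021, RKM5 to -0.071, ATF2 to -0.040, MEP1 to -0.081, NAR1 to -0.035, MDJ2 to -0.058, YNR014W to -0.037, HCR1 to -0.047, TDA4 to -0.0080, YMR315W to 0.057, OPY1 to 0.13, SRX1 to 0.34, FSH1 to 0.11, CCP1 to 0.17, TPO4 to 0.070 and OLE1 to -0.055. That setting averages values of opposite sign by construction. For the other moves the cause was not tested. Each ratio already pairs a mutant with its parent on 1 slide. No paired analysis was possible because the labels give no replicate numbers that pair slides across comparisons.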

Other observations

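YJR028W, an open reading frame of a Ty retrotransposon family with many near-identical copies, was named after its values were seen, since 1 of its 4 scans was missing. It read 1.24 on the slide with aft1 in channel 1 (weak scan alone, as the strong scan held an exact 0) and 0.94 on the slide with aft1 in channel 2. The mean was 1.09 ± 0.210 (SD, n = 2 slides; limma adjusted p = 0.0912), against -0.05 in Y18daft2 over CM3260 in hydroxyurea. Copies of the family cannot be told apart by such a probe.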
